A study of Homo sapiens with 414 samples.

Results

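Genes that move or bind zinc were followed in single LNCaP cells with and without knockdown of SULT2B1. The set holds 10 of the 36135 genes in the count table: 5 ZIP importers (SLC39A1, SLC39A6, SLC39A7, SLC39A9 and SLC39A10), 3 ZnT exporters (SLC30A1, SLC30A4 and SLC30A5) and 2 metallothioneins (MT1X and MT2A). They were named by symbol and were chosen with results of the same contrast known, so their differences between the arms are given as a description. All 10 were present in the table and all 10 passed the filter on low counts.

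ZIP proteins carry zinc into the cytosol, from outside the cell or out of organelles, and ZnT proteins carry it the other way, out of the cell or into vesicles. Metallothioneins are small cysteine-rich proteins that hold zinc and copper in the cytosol. When free zinc rises, the transcription factor MTF1 binds short metal response elements and switches on metallothionein genes and the exporter gene SLC30A1. Healthy prostate epithelium is known for storing zinc and secreting citrate, and prostate carcinoma cells typically lose much of that zinc.

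LNCaP is an epithelial line from a human prostate carcinoma. SULT2B1 encodes a sulfotransferase that adds sulfate to cholesterol and other sterols. Both arms were LNCaP cells on poly-L-lysine: control cells received a non-targeting siRNA from Dharmacon, and knockdown cells received 1 SULT2B1 siRNA from IDT, so the 2 siRNAs differ in supplier as well as target. Cells were taken 48 hours after transfection, stained for viability and isolated one by one with a Fluidigm C1 plate for large cells, in 3 batches that each held both arms. There were 76, 66 and 67 control cells and 66, 65 and 61 knockdown cells in batches 1, 2 and 3, or 401 cells in all. Reads were summed over the cells of an arm and batch, and a level in CPM below is that of such a summed library. CPM is the reads of the gene per 1e6 reads of the library. The size of a summed library was adjusted by a TMM normalization factor (0.927 to 1.04). The CPM of a single cell is per 1e6 of its own reads, without that factor. The labels do not say that batches were separate cultures, so every p-value measures the spread between batches, which may be technical.

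The 6 summed libraries held between 71630108 and 84359044 reads, and single cells held between 169244 and 2353816. Cells with over 20% of reads from mitochondrial genes numbered 35 in the control arm and 8 in the knockdown arm. SULT2B1 itself was at 2.07, 1.49 and 4.28 CPM in the control libraries and at 0.162, 0.284 and 0 CPM in the knockdown libraries, which did not overlap (adjusted p = 0.268 by edgeR and 0.0156 by DESeq2). The luminal prostate markers KLK3, KRT8 and KRT18 were read in all 6 libraries, and KLK3 averaged 798 CPM in control and 280 CPM in knockdown libraries. The basal markers KRT5 and TP63 and the leukocyte marker PTPRC were at or near 0 in both arms. Other genes of the basal list were read. That list summed to 27.0 to 71.6 CPM in control and 19.7 to 36.2 CPM in knockdown libraries. The blood or endothelial list, which holds PTPRC, summed to 0.971 to 11.5 CPM in control and 3.93 to 4.77 CPM in knockdown libraries. For the neuroendocrine list the sums were 10.7 to 19.4 CPM and 5.62 to 7.71 CPM. For the mesenchymal list they were 6.71 to 17.5 CPM and 11.6 to 31.8 CPM. The interferon response list rose in the knockdown arm, with 10 of 12 genes called higher by edgeR and a summed level of 5424 to 6636 CPM against 76.4 to 121 CPM. The S phase list lay at 446 to 630 CPM in knockdown and 876 to 1171 CPM in control libraries. Whether these differences between the arms have a part in the levels of the zinc genes was not tested.

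The DNA just before 4 of the genes is shown because it holds the letters that MTF1 is known to read, and because these 4 genes span the range from many matches to 1. The sequences are the 250 bases upstream of the RefSeq start (GRCh38.p14), read in the direction of the gene, with capitals marking each match to the metal response element core TGCACNC or TGCGCNC on either strand. The first 2 are the metallothioneins, MT2A at chr16:56608334-56608583 and MT1X at chr16:56682220-56682469, both on the plus strand. The other 2 are the exporter SLC30A1 at chr1:211579162-211579411 and the importer SLC39A6 at chr18:36129341-36129590, both on the minus strand.
MT2A: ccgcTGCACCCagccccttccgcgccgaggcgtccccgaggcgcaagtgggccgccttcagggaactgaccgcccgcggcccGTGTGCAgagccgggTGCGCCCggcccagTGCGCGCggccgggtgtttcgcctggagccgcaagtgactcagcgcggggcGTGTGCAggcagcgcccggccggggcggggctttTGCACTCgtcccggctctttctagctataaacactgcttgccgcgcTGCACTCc
MT1X: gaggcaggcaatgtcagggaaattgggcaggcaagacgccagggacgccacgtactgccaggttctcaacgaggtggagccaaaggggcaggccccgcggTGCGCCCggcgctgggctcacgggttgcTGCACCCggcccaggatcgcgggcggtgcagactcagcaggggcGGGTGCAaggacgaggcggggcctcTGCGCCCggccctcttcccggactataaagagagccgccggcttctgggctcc
SLC30A1: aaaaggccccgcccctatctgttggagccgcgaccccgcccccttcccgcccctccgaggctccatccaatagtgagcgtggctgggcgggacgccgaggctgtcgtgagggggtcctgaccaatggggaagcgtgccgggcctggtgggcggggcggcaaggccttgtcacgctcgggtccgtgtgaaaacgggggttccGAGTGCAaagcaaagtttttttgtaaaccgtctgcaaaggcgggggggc
SLC39A6: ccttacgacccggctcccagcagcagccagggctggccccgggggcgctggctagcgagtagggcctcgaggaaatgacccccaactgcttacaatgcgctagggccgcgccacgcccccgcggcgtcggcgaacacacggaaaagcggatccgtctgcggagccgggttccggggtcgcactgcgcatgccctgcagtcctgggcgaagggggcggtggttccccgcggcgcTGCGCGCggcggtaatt

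The MT2A stretch holds 7 matches, spread from 2 to 246 bases before the start. The MT1X stretch holds 4, which lie from 47 to 150 bases before the start. SLC30A1 and SLC39A6 hold 1 match each, at 43 to 49 and at 11 to 17 bases before the start. One match also lies before SLC30A4 and before 1 of the 2 starts listed for SLC39A1, and none before SLC39A7, SLC39A9, SLC39A10 or SLC30A5. Among all 35116 promoter stretches of this length in the RefSeq table, 24.8% hold at least 1 match, 0.370% hold at least 4 and 0.0313% hold at least 7. A single match is therefore common, and the count in the metallothioneins is rare. A match is only a run of letters, and binding was not measured.

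SLC39A6 was the 1 gene of the 10 that edgeR called, and it was lower after knockdown. Called means an adjusted p under 0.05 in the edgeR quasi-likelihood test on the 6 libraries, adjusted over 20326 genes. By that rule 0.384% of all genes tested were called lower and 0.394% called higher, and none of the 10 was called higher. DESeq2, run as an alternative on the same libraries, called 4.31% of its 18159 genes lower and 3.63% higher, and of the 10 it called SLC39A6 and SLC30A4, both lower. In 3 of the 10 (SLC39A6, SLC30A4 and MT1X) all knockdown libraries lay below all control libraries, against 10.1% of all genes tested, and in none did all lie above, against 10.5% of all genes. Nothing is read from these counts, because the genes were selected on the same contrast. The median log2 fold change (knockdown over control) was -0.23 over the 10 genes and 0.01 over all genes tested.

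**Figure D1:**
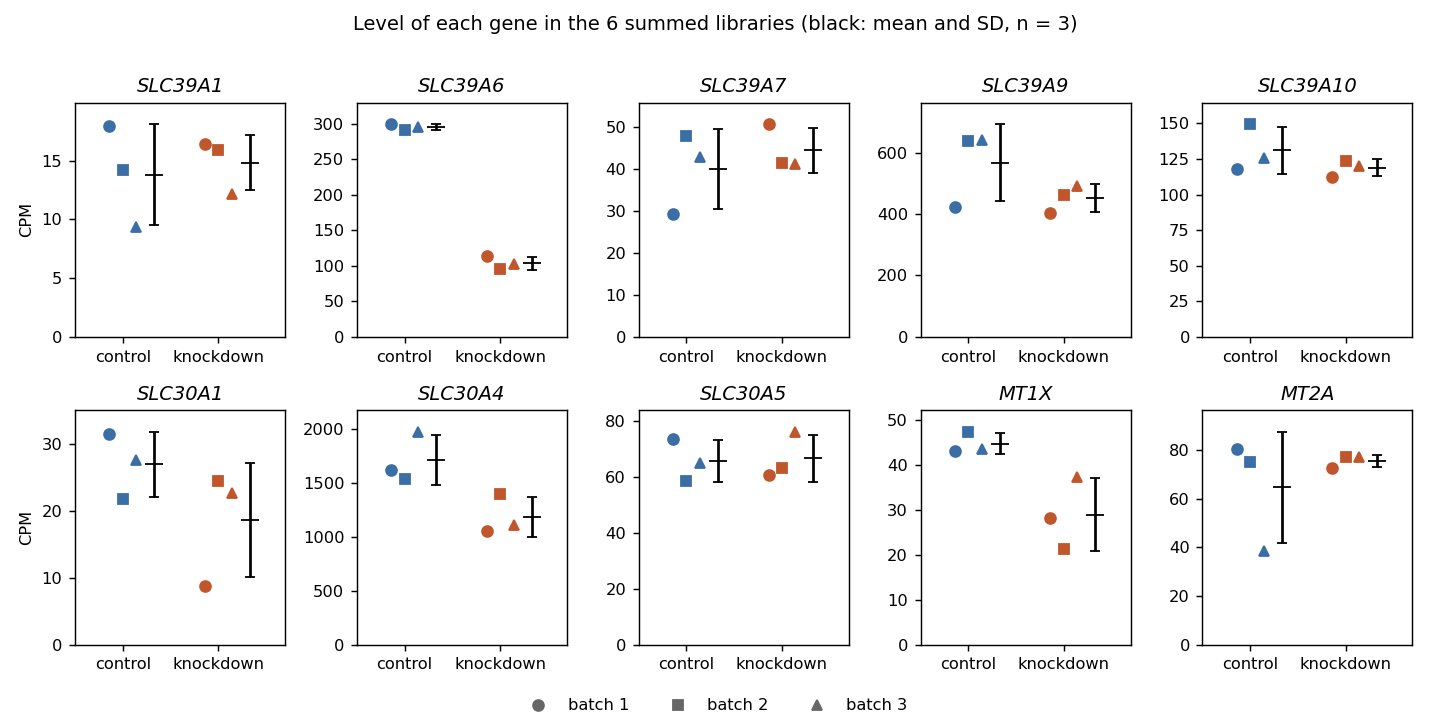
Level of each of the 10 genes in CPM (vertical axes from 0) in the 3 control (blue) and 3 knockdown (orange) libraries, with marker shape for batch and black bars for the mean and SD of 3 libraries. The SLC39A6 libraries form tight groups far apart, the SLC30A4 and MT1X groups lie closer but do not overlap, and the other 7 genes overlap between the arms.

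SLC39A6 encodes ZIP6 (also called LIV-1), a plasma membrane zinc importer that pairs with ZIP10 and is known as an oestrogen-responsive gene in breast cancer cells. Its gene lies at chr18:36108532-36129385 on the minus strand (GENCODE 29, GRCh38). The control libraries of batches 1, 2 and 3 held SLC39A6 at 299, 292 and 295 CPM, and the knockdown libraries at 114, 95.2 and 102.6 CPM. Every knockdown library was far below every control library, and the libraries within an arm were close to each other. The mean was 295 ± 3.89 CPM (SD, n = 3) in control and 104 ± 9.30 CPM (SD, n = 3) in knockdown. The log2 fold change was -1.51 (SE 0.11), a 2.85-fold lower level, with an edgeR adjusted p of 0.00263. Within batches 1, 2 and 3 the difference of log2(CPM + 1) was -1.39, -1.61 and -1.52. The call held with batch as a block, at an edgeR adjusted p of 0.0327. Without the cells over 20% mitochondrial reads the log2 fold change was -1.52.

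The lower SLC39A6 level was seen across the cells and not in a few of them. The median control cell held 263, 230 and 278 CPM in batches 1, 2 and 3, and the median knockdown cell 94.2, 78.2 and 72.7 CPM. Below the control median of the same batch lay 87.9%, 86.2% and 93.4% of the knockdown cells. SLC39A6 thus differed in the bulk of cells, yet the spread stayed wide: the upper quartile of the knockdown cells reached 184, 166 and 164 CPM, above the lower quartile of the control cells in each batch (98.3, 131 and 154 CPM). At least 1 read was found in 100% of control cells in every batch, and in 95.5%, 95.4% and 88.5% of knockdown cells. For knockdown batch 3 the exact 95% Clopper-Pearson interval was 77.8% to 95.3%. With each cell thinned to 100000 reads SLC39A6 was read in 96.2% of control cells and 79.1% of knockdown cells, as means over batches. Such intervals cover the sampling of cells within 1 library only and leave out the spread between batches. Cells of a library are not replicates of the condition. Reads were amplified without molecular identifiers, so they are not counts of independent molecules.

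**Figure D2:**
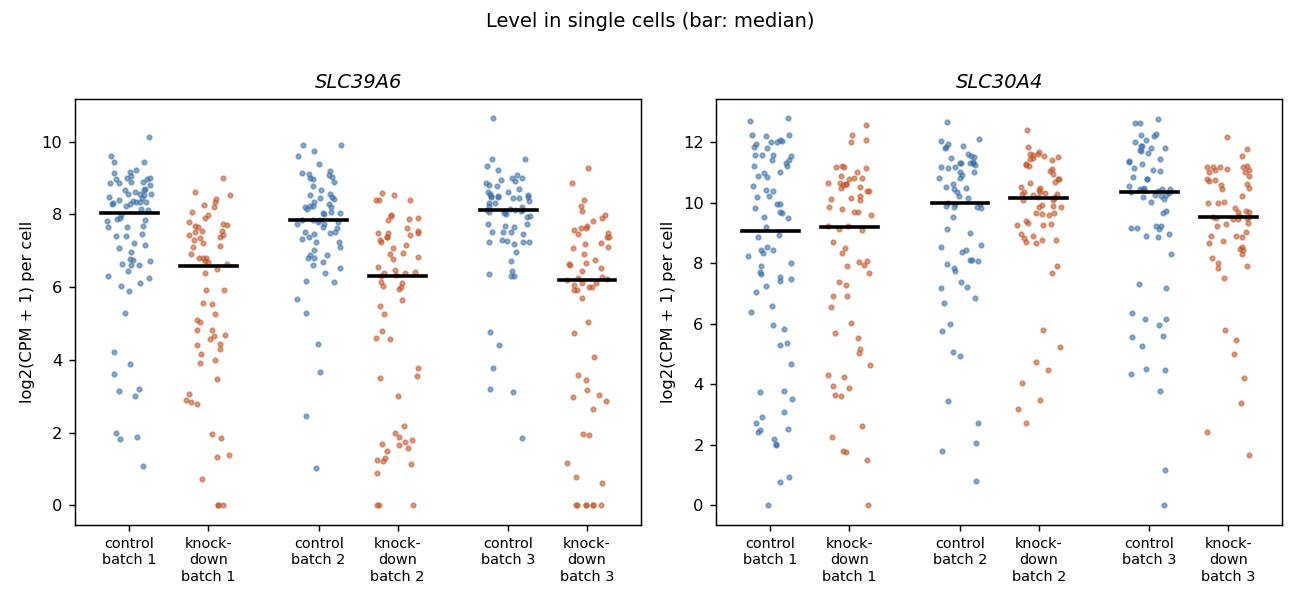
Level of SLC39A6 (left) and SLC30A4 (right) in each of the 401 cells, as log2(CPM + 1), by arm and batch; each point is a cell and the bar is the median. For SLC39A6 the knockdown median is below the control median in all 3 batches, while for SLC30A4 it is below in batch 3 only.

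Across cells of an arm and batch, SLC39A6 moved with the number of genes read in a cell (mean Pearson r of 0.41 over the 3 control and 0.32 over the 3 knockdown libraries) and against the mitochondrial share (-0.40 and -0.20). These correlations are of log2(CPM + 1) across cells that share a plate and a sequencing run. A list was scored in each cell as the mean log2(CPM + 1) of its genes. The r of SLC39A6 with the interferon list score was 0.09 in control and -0.16 in knockdown cells, a difference that was not tested. By the same measure the genes most like SLC39A6 among 6559 candidates read in at least 50% of the cells of each library were MAOA (mean r 0.354), EIF2S1 (0.349) and CCNH (0.348), against a median of 0.130 over all candidates. ELP2, which starts next to SLC39A6 on the opposite strand and was picked out after its values were seen, was at 101, 132 and 125 CPM in control and 107, 181 and 202 CPM in knockdown libraries (edgeR adjusted p = 0.495). The ELP2 libraries overlapped between the arms.

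SLC39A10 encodes ZIP10, the partner of ZIP6 at the plasma membrane. Its libraries were at 118, 149 and 126 CPM in control and 113, 124 and 120 CPM in knockdown. The arms overlapped, and the log2 fold change of -0.14 (SE 0.13) was not called (edgeR adjusted p = 0.755). SLC39A10 was read in 83.3% to 97.01% of cells, but unevenly: the highest cell of control batch 2 alone held 15.8% of that library's SLC39A10 reads. Across cells SLC39A10 and SLC39A6 had a mean r of 0.160, and the genes most like SLC39A10 were HSPA8P7 (mean r 0.273), LRRC58 (0.271) and ANAPC7 (0.257).

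SLC39A9 encodes ZIP9, an importer of the Golgi and the plasma membrane. SLC39A9 was at 422, 638 and 641 CPM in control and 403, 462 and 493 CPM in knockdown libraries. Control batch 1 lay inside the knockdown range, so the arms overlapped, although the knockdown library was the lower one in each batch. The log2 fold change was -0.33 (SE 0.18) and was not called (edgeR adjusted p = 0.505). SLC39A9 was read in 95.5% to 100% of cells. Its level moved with the number of genes read in a cell more than that of any other of the 10 in control cells (mean r 0.56), and the genes most like it were SRSF6 (0.520), NUDT19 (0.481) and BROX (0.472). SLC39A9 overlaps ERH on the other strand, and the strand setting of the counting is not given in the sources used here.

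SLC39A7 and SLC39A1 were the importers of lowest level per length of exon. SLC39A7 encodes ZIP7, which releases zinc from the endoplasmic reticulum, and was at 29.4, 48.0 and 42.8 CPM in control and 50.8, 41.5 and 41.3 CPM in knockdown libraries. The arms overlapped, with the lowest and the highest library both from batch 1 (log2 fold change 0.15, SE 0.23, edgeR adjusted p = 0.865). The share of cells with an SLC39A7 read was 59.2%, 74.2% and 71.6% in control and 77.3%, 83.1% and 82.0% in knockdown. Those shares did not overlap, but with each cell thinned to 100000 reads they did, at 47.4% to 59.1% in control and 56.1% to 63.9% in knockdown. Thinning thus left no separation for SLC39A7. RXRB overlaps SLC39A7, at 1.44 to 5.74 CPM.

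SLC39A1 encodes ZIP1, the importer most often tied to zinc uptake in prostate cells. SLC39A1 was at 17.9, 14.2 and 9.33 CPM in control and 16.4, 15.9 and 12.2 CPM in knockdown libraries. The arms overlapped and the gene was not called (log2 fold change 0.10, SE 0.32, edgeR adjusted p = 0.944). Its reads came mostly from a few cells: 40.3% to 48.5% of control and 51.5% to 54.1% of knockdown cells had a read, but in each library 3 or 4 cells held 50% of the SLC39A1 reads. A level of SLC39A1 summed over cells therefore rests on a handful of them. SLC39A1 also overlaps CREB3L4 on the other strand, at 74.7 to 142 CPM, and reads of the pair may be mixed.

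**Figure D3:**
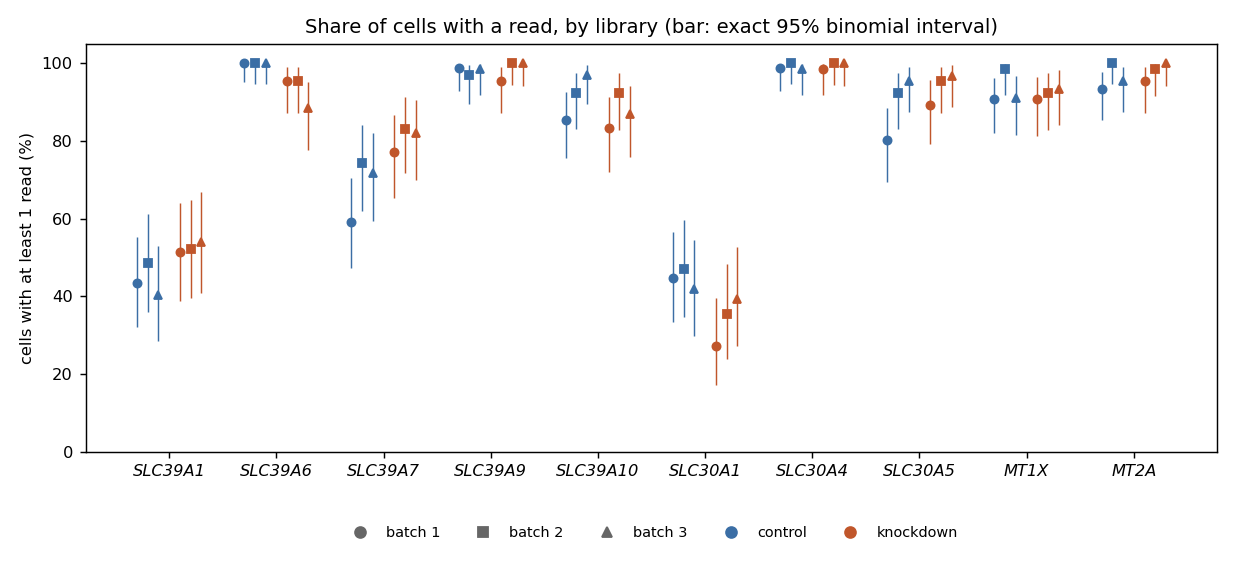
Share of cells with at least 1 read of each gene (vertical axis, percent) in each control (blue) and knockdown (orange) library, with marker shape for batch and bars for the exact 95% binomial interval. SLC39A9 and SLC30A4 are read in 95.5% of cells or more in every library, while SLC39A1 and SLC30A1 are read in between 27.3% and 54.1%.

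SLC30A4 had the highest level of the 10 per length of exon, and it was lower in knockdown than in control libraries in all 3 batches without being called. It encodes ZnT4, which fills vesicles with zinc and is known for loading zinc into milk. SLC30A4 was at 1618, 1533 and 1972 CPM in control and 1053, 1396 and 1106 CPM in knockdown libraries. The arms did not overlap, with knockdown batch 2 closest to the control range. The mean was 1708 ± 233 CPM (SD, n = 3) in control and 1185 ± 185 CPM (SD, n = 3) in knockdown, and the log2 fold change was -0.53 (SE 0.15). The edgeR adjusted p was 0.167 and did not pass, while DESeq2 gave an adjusted p of 0.0377, which did.

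Across cells the arms separated in the upper part of the SLC30A4 distribution. The upper quartile over cells was 2425, 2387 and 2619 CPM in control and 1553, 1979 and 1729 CPM in knockdown batches 1, 2 and 3, with no overlap. The median cell was at 538, 1009 and 1299 CPM in control and 581, 1130 and 734 CPM in knockdown, and those medians did overlap. Without the cells over 20% mitochondrial reads, an alternative chosen after seeing the data, the SLC30A4 medians did not overlap, at 1183 to 1366 CPM in control and 752 to 1130 CPM in knockdown. In batches 1 and 2, 47.0% and 46.2% of knockdown cells were below the SLC30A4 control median of their batch, and in batch 3 65.6% were. SLC30A4 was read in 98.5% to 100% of cells in every library. The pseudogene HMGN2P46 overlaps SLC30A4 on the other strand, at 34.9 to 53.9 CPM.

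Between cells, SLC30A4 was most like STEAP2 (mean r 0.499), a metalloreductase of iron and copper known from prostate, followed by BROX (0.463) and PPP3CA (0.445). It moved against the G2 and M phase list score in control cells (mean r -0.34) and less so in knockdown cells (-0.15). The difference between these was not tested. Among the 45 pairs of the 10 genes, SLC30A4 with SLC39A6 (0.306) and SLC30A4 with SLC39A9 (0.303) came next after the metallothionein pair, and SLC30A4 with MT2A was the lowest (-0.185). The median over the 45 pairs was 0.0469, so most of the 10 genes varied with little relation to each other.

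SLC30A1 encodes ZnT1, the main exporter of zinc across the plasma membrane and a target of MTF1. SLC30A1 was at 31.5, 21.8 and 27.6 CPM in control and 8.82, 24.4 and 22.8 CPM in knockdown libraries. Knockdown batch 1 was far below all others, and the other 2 knockdown libraries lay within the control range. The log2 fold change was -0.53 (SE 0.40), not called (edgeR adjusted p = 0.661), and the difference of log2(CPM + 1) was -1.73 in batch 1, 0.16 in batch 2 and -0.27 in batch 3. A read of SLC30A1 was found in 44.7%, 47.0% and 41.8% of control and 27.3%, 35.4% and 39.3% of knockdown cells. These shares did not overlap, and they did not after thinning to 100000 reads per cell (27.3% to 34.2% in control, 12.1% to 23.0% in knockdown). The exact intervals of neighbouring libraries overlapped, and 1 cell held 42.6% of the SLC30A1 reads of knockdown batch 1 and another 38.4% of those of control batch 3. The log2 fold change of SLC30A1 was -0.20 without knockdown batch 1, -0.77 without knockdown batch 2 and -0.33 without the cells over 20% mitochondrial reads.

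SLC30A5 encodes ZnT5, which brings zinc into the early secretory pathway for enzymes such as alkaline phosphatase. SLC30A5 was at 73.3, 58.4 and 64.8 CPM in control and 60.5, 63.0 and 76.1 CPM in knockdown libraries. The arms overlapped almost fully, with a log2 fold change of 0.02 (SE 0.17) that was not called (edgeR adjusted p = 0.979). The median cell held 24.4, 31.1 and 36.02 CPM of SLC30A5 in control and 37.2, 41.5 and 49.8 CPM in knockdown. These medians did not overlap, whereas the summed levels did. The mitochondrial share, over 20% in 35 control and 8 knockdown cells, went against SLC30A5 in all 6 libraries (r of -0.39 to -0.18 across cells). It also went against SLC39A1, SLC39A9 and SLC30A4 in all 6 libraries. Whether the mitochondrial share has a part in the SLC30A5 medians was not tested. Without the cells over 20% mitochondrial reads the SLC30A5 medians were 32.0 to 39.95 CPM in control and 41.2 to 51.5 CPM in knockdown, still without overlap. In that setting the log2 fold change of SLC30A5 turned to -0.06. The difference in the share of cells with a read went from 4.43 to -0.25 percentage points.

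Neither metallothionein was called by edgeR or DESeq2, and whether they differed from each other in their response was not tested. MT1X was at 43.1, 47.4 and 43.6 CPM in control and 28.1, 21.2 and 37.3 CPM in knockdown libraries. All knockdown libraries were below all control libraries, with batch 3 closest. The mean was 44.7 ± 2.36 CPM (SD, n = 3) in control and 28.9 ± 8.11 CPM (SD, n = 3) in knockdown, and the log2 fold change of -0.63 (SE 0.24) was not called (edgeR adjusted p = 0.315). The median cell held 20.1, 27.1 and 26.7 CPM of MT1X in control and 10.2, 13.4 and 21.2 CPM in knockdown, and these medians overlapped. MT1X was read in 90.8% to 98.5% of control and 90.9% to 93.4% of knockdown cells.

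MT2A, the most widely expressed human metallothionein, was at 80.3, 75.3 and 38.3 CPM in control and 72.8, 77.3 and 76.9 CPM in knockdown libraries. Control batch 3 stood apart as the lowest, and the other 5 libraries lay between 72.8 and 80.3 CPM. MT2A was not called (log2 fold change 0.23, SE 0.27, edgeR adjusted p = 0.822), and without control batch 3 the log2 fold change was -0.04. Single cells weighed heavily: 1 cell held 38.3% of the MT2A reads of control batch 1, and 1 cell each held 27.3% and 26.5% in knockdown batches 2 and 3. That control cell had 2525 CPM of MT2A and 863 CPM of MT1X, the highest of its library for both. In knockdown batches 1 and 2, too, the same cell was highest for both metallothioneins. In the other 3 libraries the highest MT1X cell and the highest MT2A cell were different cells.

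**Figure D4:**
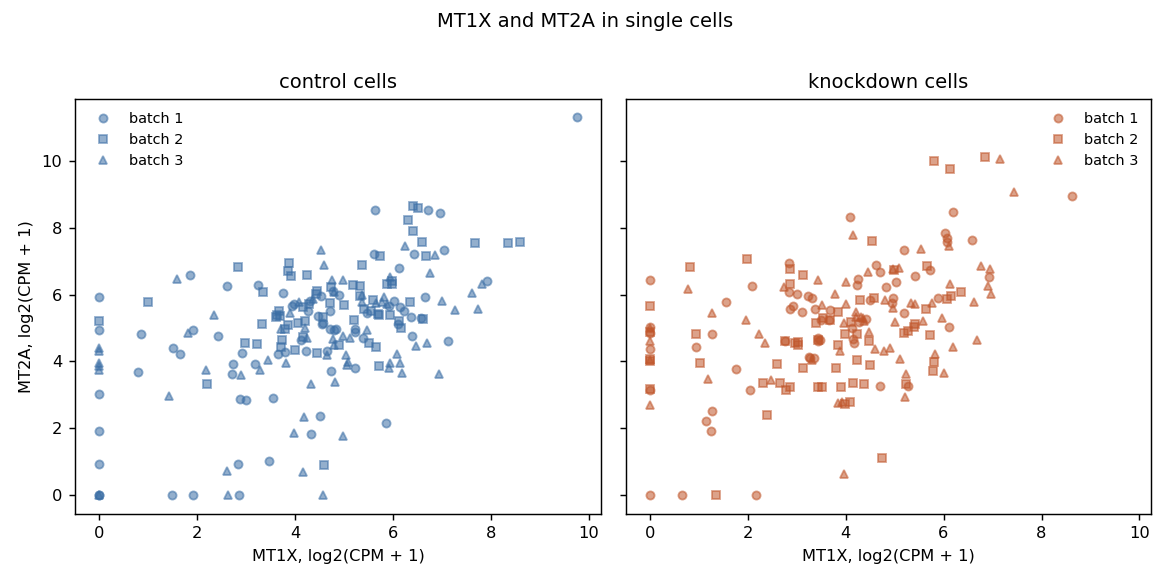
MT1X (horizontal axis) against MT2A (vertical axis) in single cells, both as log2(CPM + 1), for control (left) and knockdown (right) cells, with marker shape for batch. The levels rise together in both arms with a wide spread, and 1 control cell of batch 1 is highest for both.

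MT1X and MT2A were the most alike of the 45 pairs across cells, with a mean r of 0.467 and a range of 0.336 to 0.632 over the 6 libraries. Both were more like a pseudogene than like each other: MT2A with MT2P1 gave 0.885 and MT1X with MT1XP1 gave 0.766. These pseudogenes are processed copies that share sequence with the parent gene, so the counting may have split reads of 1 transcript between both names. MT2P1 held 15.0% of the reads of the pair in control and 15.1% in knockdown, and MT1XP1 held 17.0% and 17.5%. With the copies summed, an alternative chosen after seeing the data, the log2 fold change was 0.23 for MT2A and -0.62 for MT1X. In knockdown cells MT2A had a mean r of 0.27 with the interferon list score and MT1X one of 0.00. In control cells both were near 0 (0.01 and 0.00). For SLC30A5 the mean r with that score was 0.31 in control and -0.27 in knockdown cells. For SLC39A10 it was 0.25 and -0.24. SLC39A7, SLC39A9 and SLC30A1 had 0.19, 0.17 and 0.17 in control cells and 0.03, -0.04 and -0.04 in knockdown cells. The interferon list was low in control libraries, at a summed 76.4 to 121 CPM. None of these differences between the arms was tested. MT2A also moved with the G2 and M phase list, at 0.32 in control and 0.23 in knockdown cells.

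Levels of different genes can be set side by side only per length, here as CPM per kilobase of all annotated exons of a gene. On that scale SLC30A4 led the control arm at 212 ± 28.8 (SD, n = 3), followed by SLC39A6 at 80.2 ± 1.06, SLC39A9 at 79.4 ± 17.6 and MT2A at 49.8 ± 17.6. SLC39A6 and SLC39A9, and SLC39A9 and MT2A, overlapped over the control libraries, as did SLC39A7 with SLC30A5 and SLC30A1 with SLC39A1. MT1X (25.2 ± 1.33), SLC39A10 (18.9 ± 2.39), SLC39A7 (14.1 ± 3.37) and SLC30A5 (11.3 ± 1.29) came next, and SLC30A1 (4.93 ± 0.90) and SLC39A1 (4.07 ± 1.27) were lowest. In the knockdown arm SLC39A6 stood at 28.2 ± 2.53, the fourth of the 10, below SLC39A9 (63.4 ± 6.40) and MT2A (58.3 ± 1.92). The exon length counts every annotated isoform, which places short genes with long rare isoforms, such as the metallothioneins, too low on this scale.

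The rest of the 3 families showed no further call by edgeR, while DESeq2 also called SLC39A8 and SLC30A7 lower. Of 14 ZIP genes all were in the table and 11 were tested, of which edgeR called 1 lower (SLC39A6) and 10 were not called, with a median log2 fold change of 0.00. SLC39A8, picked out after its values were seen, encodes ZIP8, an importer of zinc, manganese and cadmium. SLC39A8 was at 88.5, 63.9 and 64.1 CPM in control and 28.5, 27.5 and 37.3 CPM in knockdown libraries. These libraries did not overlap, and the log2 fold change of -1.21 (SE 0.21) missed the threshold in edgeR (adjusted p = 0.0619) and passed it in DESeq2 (adjusted p = 1.52e-05).

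Of 10 ZnT genes 9 were in the table and 7 were tested, none of them called by edgeR and 2 called lower by DESeq2 (SLC30A4 and SLC30A7), with a median log2 fold change of -0.53. SLC30A7, which encodes the Golgi transporter ZnT7, was at 282, 260 and 283 CPM in control and 187, 220 and 218 CPM in knockdown libraries. The SLC30A7 arms did not overlap (log2 fold change -0.40, SE 0.11, adjusted p = 0.169 by edgeR and 0.0468 by DESeq2). SLC30A9, at 191 to 207 CPM in control and 178 to 268 CPM in knockdown libraries, overlapped between the arms.

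Of 11 metallothionein genes 7 were in the table and 4 were tested, none of them called by edgeR or DESeq2, with a median log2 fold change of -0.60. MT1G was at 29.2, 31.2 and 27.2 CPM in control and 22.3, 15.3 and 21.8 CPM in knockdown libraries, without overlap (log2 fold change -0.56, SE 0.23, edgeR adjusted p = 0.348). MT1A had 0 reads in all 6 libraries. Across cells MT1G was somewhat like MT1X (mean r 0.288) and MT2A (0.255). Of the 7 metallothionein pseudogenes listed 3 were tested and none was called by either tool, and MT1DP and MT1P1 averaged under 1 CPM in both arms.

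**Figure D5:**
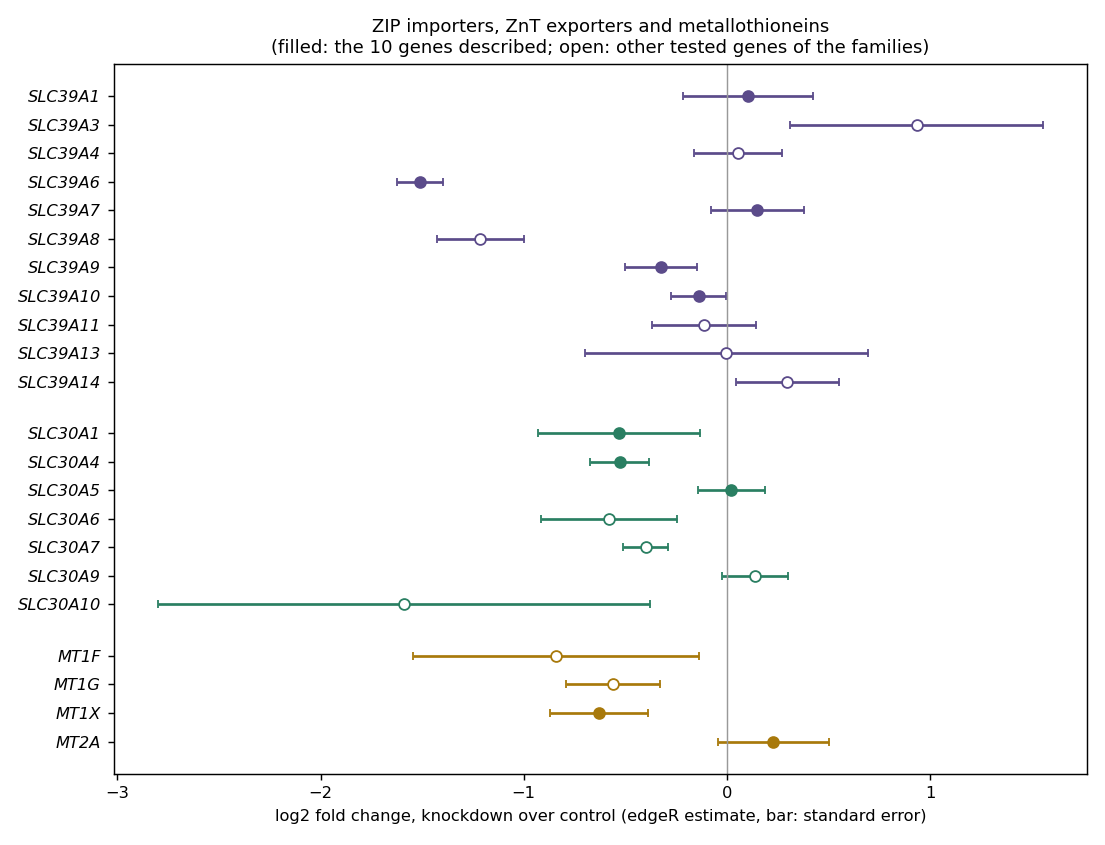
Log2 fold change of knockdown over control (horizontal axis, edgeR estimate with its standard error as bar) for the tested ZIP (purple), ZnT (green) and metallothionein (ochre) genes; filled points are the 10 genes described and open points the other family members. SLC39A6 at -1.51 has a short bar far from 0 and is the only gene plotted with an edgeR adjusted p under 0.05.

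Genes around the zinc system were counted by lists. Among 8 tested zinc-sensing and other zinc genes edgeR called none and DESeq2 called 2 higher (SLC11A2 and CREB3), and the median log2 fold change was 0.17. Of the 3 with the highest CPM, the divalent metal importer SLC11A2 was at 102, 114 and 117 CPM in control and 169, 135 and 176 CPM in knockdown libraries, without overlap (adjusted p = 0.16 by edgeR and 0.0288 by DESeq2). CREB3 was at 26.5 to 42.6 CPM in control and 68.5 to 75.5 CPM in knockdown libraries, also without overlap (adjusted p = 0.10 by edgeR and 0.000692 by DESeq2), and the zinc chaperone gene ZNG1A overlapped. MTF1, the zinc sensor itself and also picked out afterwards, was at 37.2 ± 11 CPM in control and 42.2 ± 10.1 CPM in knockdown (SD, n = 3), and its libraries overlapped.

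None of 12 tested genes of citrate and zinc metabolism in prostate was called by edgeR, while DESeq2 called 1 higher and 3 lower, ACLY among them, with a median log2 fold change of 0.01. ACLY, which splits citrate into acetyl-CoA for lipid synthesis, was at 495, 394 and 411 CPM in control and 270, 271 and 260 CPM in knockdown libraries. The ACLY arms did not overlap, and the log2 fold change of -0.70 (SE 0.12) missed the threshold in edgeR (adjusted p = 0.0517) and passed it in DESeq2 (adjusted p = 0.00011). CS, the citrate synthase gene, and GOT2, a mitochondrial aspartate aminotransferase, overlapped.

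None of 11 copper genes and none of 12 iron genes was called by edgeR, with median log2 fold changes of 0.05 and 0.09. DESeq2 called no copper gene and 1 iron gene, ACO1, which encodes an iron regulatory protein and was picked out after its values were seen (log2 fold change 0.60, SE 0.18, adjusted p = 0.194 by edgeR and 0.0292 by DESeq2). SOD1, the copper and zinc superoxide dismutase, was at 678, 726 and 715 CPM in control and 851, 841 and 815 CPM in knockdown libraries, without overlap (log2 fold change 0.24, SE 0.08, edgeR adjusted p = 0.259). The copper importer SLC31A1, the copper chaperone ATOX1, STEAP2, the ferritin light chain gene FTL and the transferrin receptor gene TFRC all overlapped between the arms.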

How the data were processed

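The deposited values are integer counts of the reads of each gene in each cell without molecular identifiers, which the authors did not normalize. The genome build was GRCh38.p3 and the tools were TopHat2 2.1.0, FastQC 0.11.3, edgeR 3.2.2 and HTSeq 0.6.1, per the submitters' processing notes. Annotation release and strand: not given in the sources used here. Per the labels' protocols, capture sites with no cell, several cells or a dead cell were left out by microscopy, and no doublet caller was run. Of 414 samples, 401 cells were used; 4 columns of values were not used. Of 36135 genes, 34891 were named by the gene name table and 257 by GENCODE 29. Genes absent from the table were not analysed here, and some genes of the lists are not reported here.

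Counts were summed over cells into 3 control and 3 knockdown libraries, 1 for each batch, and tested with edgeR 4.0.16 (quasi-likelihood, robust, TMM, filterByExpr with minimum count 10, Benjamini-Hochberg over 20326 genes; limma 3.58.1, R 4.3.3), a script tested on simulated data. The common dispersion was 0.497. The labels' word batch pairs the libraries; the deviations of same-numbered libraries correlated at 0.0780, 0.000547 and 0.000233, and the blocked value stands beside a result where it changes a call. Shares of cells carry exact Clopper-Pearson intervals. Likeness is the Pearson correlation of log2(CPM + 1) across cells within a library, averaged over 6 libraries, with no test. Alternatives were DESeq2 1.42.0, its size factors, no filter, each library left out, a batch block, cells of at most 20% mitochondrial reads, and equal weight per cell.

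The members and lists were chosen with earlier results of these data known. Named are the 10 genes, SULT2B1, the called genes of each zinc, metallothionein, copper, iron and citrate list or else its 3 genes of highest CPM, and the 3 genes most like a member; others are marked as picked out after their values were seen.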

Additional observations from a re-analysis of the deposited data

How the results depend on the processing

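The number of genes called was 158 and became 1442 with DESeq2, 309 without the filter on low counts, 38 with the replicate block, and 46 to 69 when 1 library was left out. SLC39A6 was called in each of these fits, and 1 of the 10 genes was called in all of them except DESeq2, which called 2 by adding SLC30A4. With the replicate block the edgeR adjusted p of SLC39A6 was 0.0327, and the block changed no other call among the 10. The sign of the log2 fold change turned for 4 uncalled genes. Without cells over 20% mitochondrial reads SLC39A1 was at -0.0196 and SLC30A5 at -0.0604. With 1 library left out the values ranged from -0.12 (without control batch 3) to 0.33 for SLC39A1, from -0.0392 (without control batch 1) to 0.30 for SLC39A7, from -0.0839 (without knockdown batch 3) to 0.10 for SLC30A5, and from -0.0441 (without control batch 3) to 0.40 for MT2A. SLC30A5 was also negative, at -0.0548, without control batch 2. The cause was not tested.

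The difference in the share of cells with a read, in percentage points of knockdown minus control, moved by more than its spread over batches in these cases. With cells thinned to 100000 reads it was -17.1 for SLC39A6, 6.57 for SLC39A7, 5.08 for SLC30A4 and -13.9 for MT1X. With at least 5 reads it was -16.0 for SLC39A6, 5.02 for SLC39A7, 4.68 for SLC39A9 and 2.00 for SLC30A4. Without cells over 20% mitochondrial reads it was 6.76 for SLC39A7 and -0.25 for SLC30A5. With 3 libraries an arm and a common dispersion of 0.497, genes of low level whose reads sit in a few cells, such as SLC39A1 and SLC30A1, have wide errors.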
